A study of Mus musculus with 16 samples.

Results

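Of the 8912 autosomal protein-coding genes with at least 1000 bp of their body inside peaks of monoubiquitylated histone H2B (H2Bub1) in wild-type (WT) mouse embryonic stem cells (mESCs), 1417 had fewer bases inside peaks in mESCs lacking Atxn7l3 (KO). These 1417 genes (15.9% of those compared) are described here. They were chosen by measured values, the covered bases of both mESC libraries, so their loss of H2Bub1 in mESCs is a description and not a result. Of the other 7495 genes, 7273 had more covered bases in KO and 222 had equal numbers. In all, 20807 autosomal protein-coding gene records of GENCODE M21 were searched.

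The data are chromatin immunoprecipitation and sequencing (ChIP-seq) peak lists made with antibodies to H2Bub1 and to RPB1, the largest subunit of RNA polymerase II (Pol II). The groups were Atxn7l3+/+ (WT) and Atxn7l3-/- (KO) mESCs, and WT and KO mouse embryonic fibroblasts (MEFs), all from DBA/2 x C57BL/6 mice, with 1 library per antibody and group, 8 libraries in all. The mESCs were derived from E3.5 blastocysts and grew in LIF with the inhibitors PD0325901 and CHIR99021, and each antibody and genotype is represented by a single library. The MEFs came from E10.5 embryos without head and gastrointestinal tract. The null allele was made with a recombinase deleter strain, from a construct that put LoxP sites and a reporter and selection cassette into Atxn7l3. There were no replicates, so the differences below were not checked against replicate error, and p-values are not given. The 95% intervals cover counting over genes only, and neighbouring genes can share a peak. Of 6 pluripotency genes, 5 had a Pol II peak at the promoter in the WT mESC library and 5 in that of the KO, and among 4 fibroblast genes (Col1a1, Col1a2, Thy1, Twist2), 0 had one in mESCs and 4 had one in both MEF libraries. Of the 6 pluripotency genes, 1 had one in WT MEFs and 2 in KO MEFs.

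H2Bub1 is placed on the bodies of transcribed genes by the RNF20/RNF40 ubiquitin ligase, which travels with elongating Pol II, and is removed by ubiquitin proteases such as USP22 that need the adaptor ATXN7L3. Most genes compared had more bases inside H2Bub1 peaks in KO. The genes described here went the other way in mESCs. Replication-dependent histone genes, which are short, lack introns and are transcribed in S phase, and ribosomal protein genes, which are among the most transcribed genes of growing cells, stood beside genes without a Pol II peak at the promoter in mESCs.

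The sequences upstream of 7 of these genes are shown because they represent the kinds of genes found: 4 histone genes (H1f2, H3c4, H4c4 and H2ac6 in RefSeq), the ribosomal protein gene Rpl27a, and Glp1r and Wnt9b, at which no covered base was left in KO mESCs. Each is the 250 bases before the RefSeq transcription start site (TSS) in build GRCm38.p6, given 5′ to 3′ on the strand of the gene. Capitals mark the letters CCAAT (the box bound by NF-Y) and TATAA (the core of the box bound by TBP), searched on both strands, so that a match on the opposite strand appears as its reverse complement. The windows are chr13:23738557-23738806 (plus strand), chr13:23575513-23575762 (plus), chr13:23581318-23581567 (plus), chr13:23683960-23684209 (minus), chr7:109518945-109519194 (plus), chr17:30901617-30901866 (plus) and chr11:103749822-103750071 (minus).
Hist1h1c: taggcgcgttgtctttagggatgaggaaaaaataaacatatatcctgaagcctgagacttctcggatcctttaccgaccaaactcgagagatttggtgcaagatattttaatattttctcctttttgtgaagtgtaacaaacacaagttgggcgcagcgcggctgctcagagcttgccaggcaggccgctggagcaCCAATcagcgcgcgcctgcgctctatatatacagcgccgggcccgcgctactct
Hist1h3d: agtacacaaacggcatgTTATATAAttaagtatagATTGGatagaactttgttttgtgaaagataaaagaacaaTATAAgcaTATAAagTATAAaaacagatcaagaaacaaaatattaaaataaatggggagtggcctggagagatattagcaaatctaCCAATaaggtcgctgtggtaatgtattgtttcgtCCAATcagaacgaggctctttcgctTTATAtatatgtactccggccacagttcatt
Hist1h4d: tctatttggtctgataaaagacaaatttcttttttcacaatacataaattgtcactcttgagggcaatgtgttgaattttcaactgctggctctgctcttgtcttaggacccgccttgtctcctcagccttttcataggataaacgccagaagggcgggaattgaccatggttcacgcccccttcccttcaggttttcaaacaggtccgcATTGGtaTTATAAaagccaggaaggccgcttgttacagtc
Hist1h2ac: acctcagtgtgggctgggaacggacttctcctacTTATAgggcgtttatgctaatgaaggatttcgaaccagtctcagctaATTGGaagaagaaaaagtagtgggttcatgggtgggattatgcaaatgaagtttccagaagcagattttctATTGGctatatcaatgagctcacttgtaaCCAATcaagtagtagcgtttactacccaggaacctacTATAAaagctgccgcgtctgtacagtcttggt
Rpl27a: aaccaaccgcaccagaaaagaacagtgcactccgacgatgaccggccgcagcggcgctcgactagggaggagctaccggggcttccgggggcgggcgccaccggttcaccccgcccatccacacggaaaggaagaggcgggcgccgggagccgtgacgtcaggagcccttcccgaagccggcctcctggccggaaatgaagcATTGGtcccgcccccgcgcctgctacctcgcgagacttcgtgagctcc
Glp1r: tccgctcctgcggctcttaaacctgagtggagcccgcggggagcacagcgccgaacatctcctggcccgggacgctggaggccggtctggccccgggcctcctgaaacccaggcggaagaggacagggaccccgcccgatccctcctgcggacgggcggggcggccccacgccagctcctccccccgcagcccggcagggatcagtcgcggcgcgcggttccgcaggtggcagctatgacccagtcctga
Wnt9b: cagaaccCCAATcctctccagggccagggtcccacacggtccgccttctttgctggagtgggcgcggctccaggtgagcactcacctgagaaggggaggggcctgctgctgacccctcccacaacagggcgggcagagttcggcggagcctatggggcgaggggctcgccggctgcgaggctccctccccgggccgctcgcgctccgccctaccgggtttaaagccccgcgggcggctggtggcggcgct

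RefSeq starts within 1000 bp of the GENCODE start were found for 998 of the 1417 genes, by symbol or synonym. CCAAT was present upstream of 5 of the 6 matched histone genes, of 34.4% of the 998 genes and of 33.9% of all 32851 promoters of this length in the table. TATAA was present at 4 of those 6 histone genes, at 13.9% of the 998 genes and at 22.8% of all promoters. The letters of CCAAT and TATAA share no bases in these windows, while TATAA matches of opposite strands can overlap. Hist1h3d held 3 CCAAT and 6 TATAA matches and had 32.8% GC, whereas Glp1r held neither and had 73.2% GC. The median GC content of the upstream window was 59.6% over the 998 genes and 52.4% over all promoters. The other 7495 genes compared were not given windows, so no upstream trait particular to the set is read from these values. These matches describe letters in a window and not bound sites.

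The loss ranged from 2 bp to 19936 bp (at Nod1). Covered bases count positions called as peaks and do not measure the amount of the mark. Losing H2Bub1 here means having fewer covered bases in KO. In bulk chromatin, fewer cells that carry the mark, less mark per cell and a signal no longer called as a peak cannot be told apart. The smallest losses were at Derl3, which went from 2252 bp in WT to 2250 bp in KO, and at Tgfbr3l, which went from 3210 bp to 3208 bp. Just outside this limit, Cyc1 had 2737 bp in WT and 2738 bp in KO, and Dus1l had 7202 bp and 7203 bp. At the other limit, 6820408C15Rik and Siah3 had 1000 bp in WT and 0 bp in KO, while 9330161L09Rik (999 bp and 244 bp) and Guca2b (999 bp and 0 bp) were left out. The median gene lost 1041 bp, which was 26.8% of its WT covered bases. Under 10% of the WT bases were lost at 362 genes, 10% to under 50% at 614, 50% to under 100% at 246, and all at 195 (2.19% of the genes compared). The share with a peak of Pol II at the promoter in WT mESCs fell along these 4 steps, from 74.3% to 56.2%, 28.9% and 18.5%. The read depth of the libraries is unknown and the lists differ in length, with 40979 H2Bub1 peaks for WT mESCs and 48952 for the KO. The WT peaks were also weaker at the genes that lost bases, where the median of the best −log10 q in the gene body was 2.24, against 2.99 at the other genes and 1.57 at the 195 genes that lost all bases. At genes with the highest Pol II folds, defined below, the order was opposite, with 6.95 in the set and 5.67 at the others. With only peaks of −log10 q of at least 3, the set held 451 of 3514 genes (12.8%), and 47 of them had no base left in KO.

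The targeted gene is itself in the set. Atxn7l3 (chromosome 11) had its whole body of 7332 bp inside a WT mESC peak and 4582 bp inside KO peaks. The KO peaks stopped 1973 bp from the 5′ end and resumed at 4723 bp, and in KO MEFs they stopped at 2100 bp and resumed at 4641 bp, so both KO cell types had a gap over nearly the same stretch. In WT MEFs the only peak ran from 639 bp to 2254 bp, so most of that stretch was without a peak in WT MEFs too. The gene was altered in the KO cells, and a loss of DNA and a loss of the mark over the gap cannot be told apart in the mESC peak lists. Covered bases at Atxn7l3 in MEFs were 1615 in WT and 4791 in KO. Usp22, which encodes the protease that ATXN7L3 activates, had 18889 bp covered in mESCs of the WT and 16632 bp in those of the KO, and 8559 bp and 10869 bp in MEFs. At Usp22 the KO mESC peaks were continuous over the first 15204 bp of the gene and were shorter than in WT only beyond it. Of 5 deubiquitylase module genes compared, these were the 2 with fewer bases. Of 11 genes for the H2B ligase and the elongation factors PAF and FACT, 3 had fewer bases in KO mESCs, namely Ctr9 of the PAF complex (2480 bp and 2229 bp) and both FACT subunits, Ssrp1 (8329 bp and 7163 bp) and Supt16 (9289 bp and 9236 bp). Of all genes 15.9% had fewer, and no difference is read from 2 of 5 and 3 of 11 genes. All 5 named genes had more covered bases in KO than in WT MEFs, as had 85.8% of all genes compared.

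The genes that lost H2Bub1 in KO mESCs were shorter and richer in GC than the others. Their median length was 14968 bp (95% interval 14056 to 15938) against 26884 bp (25861 to 27693) for the other 7495 genes. The median GC content of the gene body was 50.5% (50.2 to 50.9) against 47.2% (47.0 to 47.4), and with only peaks of −log10 q of at least 3 it was 47.4% against 45.8%. Split into 5 equal classes of GC content, 7.07% of the genes under 42.93% GC lost bases and the share rose with every class to 26.7% of those above 52.67% GC. Split into 5 classes of length, 23.6% of the genes up to 8617 bp lost bases, and the share fell with every class to 7.12% of those of 68384 bp or more. The relation to GC was present among long genes. Of genes over 30 kb, 5.40% of those with low GC (up to 45.24%), 12.5% of those with intermediate GC and 19.3% of those with high GC (50.38% or more) lost bases. Of genes of 10 to 30 kb the shares were 11.6%, 14.4% and 27.5%. Among genes under 10 kb they were 19.9%, 25% and 24.0%, with overlapping intervals, so at short genes the classes of GC could not be told apart at these counts.

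Within the set, bases covered in WT only came to 3.14 Mb and had 52.5% GC, bases covered in both came to 4.91 Mb with 51.8% GC, and bases covered in KO only came to 1.26 Mb with 51.2% GC. At the other genes, bases covered in WT only came to 8.19 Mb with 50.8% GC, and the 70.3 Mb covered in KO only had 46.7% GC. Genes with less H2Bub1 thus also gained some bases, and the other genes also lost some. The set was spread over all 19 autosomes, from 9.47% of the genes compared on chromosome 12 to 21.1% on chromosome 8.

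**Figure D1:**
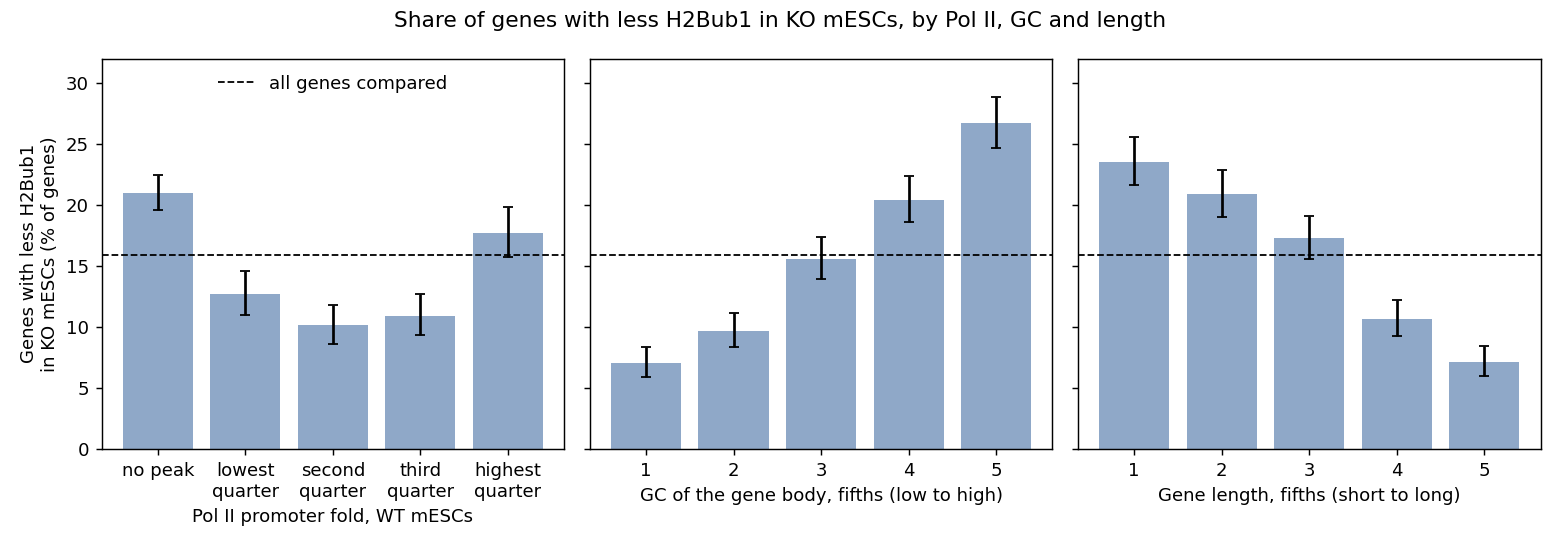
Share of the genes compared that had less H2Bub1 in KO mESCs (% of genes, bars with exact 95% Clopper-Pearson intervals over genes), by class of Pol II promoter fold in WT mESCs, by GC content and by gene length. The share is highest without a Pol II promoter peak (20.99%). At the highest folds it is 17.7%, above the classes of lower folds, with an interval that holds the dashed line. The share rises with GC and falls with length. The dashed line is the 15.9% of all genes compared.

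A Pol II promoter peak was one within 1000 bp of the TSS, and its fold is the height over the background of its own library. Of the 1417 genes, 721 (50.9%, 95% interval 48.2 to 53.5) had such a peak in WT mESCs, against 65.0% (64.0 to 66.1) of the other genes and 62.8% of all genes compared. With only peaks of −log10 q of at least 3 the shares were 81.2% and 80.2%. The share of genes that lost H2Bub1 was above that of all genes where no Pol II promoter peak was called. At the highest folds it was above the classes of lower folds, but its interval held the 15.9% of all genes. Of 3316 genes with no Pol II promoter peak, 20.99% (19.6 to 22.4) lost H2Bub1. Genes with a peak were split by fold into 4 classes of 1399, in which the shares were 12.7%, 10.2%, 10.9% and, in the class with folds of 5.87 and above, 17.7% (15.8 to 19.8). Of the 200 genes with the highest folds, a cut chosen after the values were seen, 64 (32%) lost H2Bub1. With only peaks of −log10 q of at least 3, the share without a Pol II promoter peak was 12.3%, against 12.8% of all genes compared, while the class of highest folds was above it with 21.3% (18.28 to 24.45). The excess of genes without a Pol II promoter peak was not present at that threshold. Counting only losses of at least 50% of the WT bases, 10.1% of the genes without a Pol II promoter peak and 1.501% of those with the highest folds were in the set, against 4.95% of all genes, so most losses at the highest folds were smaller than that. With equal numbers of peaks, the share at the highest folds was 19.6% (17.4 to 21.9) against 18.6% of all genes. Over genes at least 5000 bp from another it was 16.35% (13.15 to 19.98) against 14.1%. Both intervals held the share of all genes.

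The 696 genes without a Pol II promoter peak and the 248 in the class of highest Pol II folds differed in most of what was measured. Of the 696, 231 (33.2%) had bases inside a WT Pol II peak within the gene body, so they are not all without Pol II. Among the 2620 other genes without a Pol II promoter peak, 1167 (44.5%) had such bases. In the first, the median gene had 16.2% of its body in WT H2Bub1 peaks and 5.01% in KO, and it lost 47.5% of its covered bases. In the second, the median gene had 69.9% in WT and then 54.5% in KO and lost 13.2%. Median GC content was 51.3% in the first and 47.7% in the second. Of the 195 genes with no base left, 159 had no Pol II promoter peak in WT mESCs and 8 were in the class of highest folds. Genes widely covered in WT had less room to gain, and 26.1% of the 1183 genes with at least 75% of the body in WT peaks were in the set, against 13.3% of the 2609 genes with under 10%. The part of that limit in the calls was not tested.

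Pol II peaks at these promoters were fewer in KO mESCs. A peak was present in WT and absent in KO at 196 of the 1417 genes (13.8%, 12.1 to 15.7), against 12.3% (11.5 to 13.0) of the others and 12.5% of all genes compared, with overlapping intervals. With only peaks of −log10 q of at least 3 it was 11.3% in the set and 9.27% in the others. Requiring in addition that no KO peak lay within 5000 bp of the TSS left 172 genes (12.1%), against 10.7% of the others. A peak in KO and not in WT was found at 49 genes (3.46%, 2.57 to 4.55), fewer than the 8.17% (7.56 to 8.81) among the others and the 7.42% of all. Counted over the genes that had a WT peak, 27.2% (24.0 to 30.6) of the set and 18.9% (17.8 to 19.98) of the others had none in KO. That contrast was not recomputed with only peaks of −log10 q of at least 3 or with equal list lengths. Of the genes with a peak in both, the fold was lower in KO at 54.3% (49.9 to 58.6) of the set and at 47.6% (46.0 to 49.2) of the others. The KO Pol II list was shorter, with 11963 peaks against 17074, and its part in the absent peaks was not tested apart from the comparison of equal list lengths, in which the share with a peak in WT only was 9.42% in the set and 8.30% in the others. The 5 highest WT folds among the promoters with a peak in WT only were those of Hnrnpl (11.3), Ech1 (9.40), Dlg4 (6.55), Lat (5.81) and Washc1 (5.65). At Ech1, Dlg4 and Hnrnpl a KO peak lay just beyond the window, 1115 bp, 1290 bp and 1813 bp from the TSS, and the WT peak of Dlg4 lay 982 bp from it. Hnrnpl, a splicing regulator, kept nearly all its H2Bub1 (13427 bp in WT and 13016 bp in KO), whereas Dlg4, a scaffold protein of synapses, went from 4510 bp to 375 bp.

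Lost bases lay mostly towards the 3′ end, in the set and in the other genes. Each gene body was cut into 10 equal segments. In the class of highest Pol II folds, the genes of the set lost 6.77% of the WT covered bases in the first segment, 25.6% in the fifth and 51.3% in the last. In that class the mean cover of the first segment was 83.7% in WT and 82.9% in KO, and that of the last was 46.0% and 25.4%. At genes of the set without a Pol II promoter peak the lost share was already 48.7% in the first segment and 65.3% in the last. Of 222 genes of the class of highest folds with WT peaks in both the 5′ and the 3′ part of the body, 186 lost a larger share of the 3′ part, 30 a larger share of the 5′ part and 6 equal shares. Of the 899 other genes of that class, 459 lost more of the 3′ part, 65 more of the 5′ part and 375 equal shares, so that among genes with unequal shares 86.1% (80.8 to 90.4) of the set and 87.6% (84.5 to 90.3) of the others lost more of the 3′ part. Of 457 such genes of the set without a Pol II promoter peak, 197 lost more of the 3′ part, 116 more of the 5′ part and 144 equal shares, which came to 62.9% (57.3 to 68.3) of the genes with unequal shares, against 76.9% (74.6 to 79.1) of the other genes without one. The lost share of the other genes with the highest folds also rose along the body, from 1.46% in the first segment to 26.1% in the last. These positions come from the same libraries that chose the genes and are a description.

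**Figure D2:**
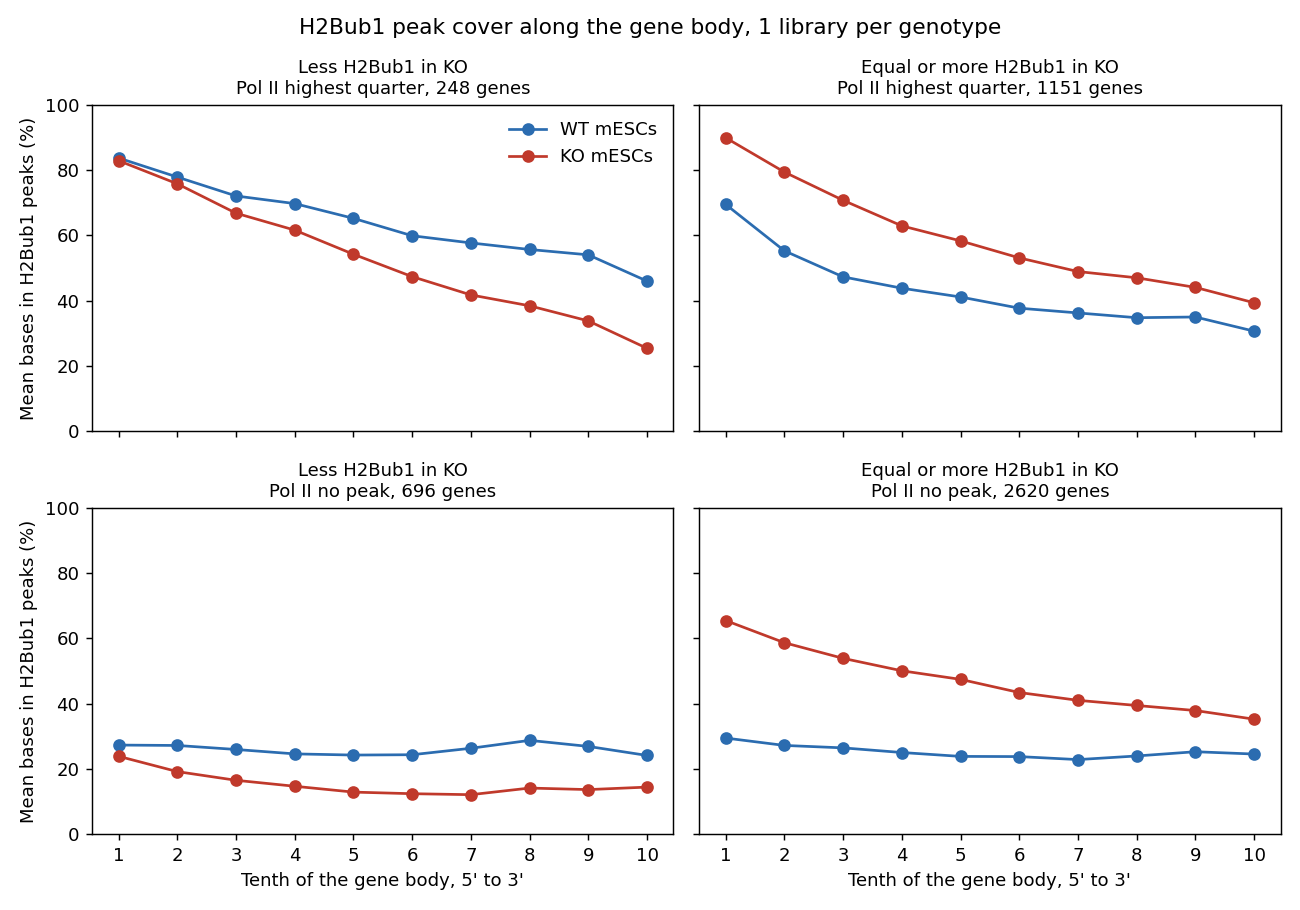
Mean share of bases inside H2Bub1 peaks (%) in 10 equal segments of the gene body from 5′ to 3′, WT and KO mESCs, for genes with less H2Bub1 in KO (left) and the other genes (right), in the class of highest Pol II folds (top) and without a Pol II promoter peak (bottom). At the 248 genes with less H2Bub1 and the highest folds, the curves start together at 83.7% and 82.9% and end at 46.0% and 25.4%.

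The genes with the most lost bases were of both kinds. Nod1, a sensor of bacterial cell wall fragments, had 26683 bp covered in WT mESCs and 6747 bp in KO. It had no Pol II promoter peak in either mESC library, and its largest WT peak, of 16613 bp, began 24292 bp from its 5′ end. Usp48, a ubiquitin protease, went from 50580 bp to 38239 bp with Pol II promoter folds of 11.6 in WT and 9.16 in KO. Dync1h1, the heavy chain of cytoplasmic dynein, went from 46377 bp to 34229 bp with folds of 4.33 and 3.80. Eif2s2, a subunit of the translation initiation factor eIF2, went from 13217 bp to 5894 bp while its Pol II fold was 7.14 in WT and 14.4 in KO. At Eif2s2 the first KO peak ended 3119 bp from the 5′ end and the first WT peak at 3291 bp, and the last KO peak ended at 13189 bp whereas WT peaks went on to 21251 bp. Fn1 (fibronectin) went from 22386 bp to 15240 bp and Vac14, of the complex that makes a phosphoinositide of endosomes, from 44284 bp to 34417 bp. The guidance cue Ntn1 (14872 bp and 4932 bp), the neuronal splicing factor Rbfox3 (23409 bp and 15167 bp) and the erythrocyte membrane protein Dmtn (17893 bp and 10590 bp) were also among the 10 largest losses. Of the genes named here, Usp48, Dync1h1, Vac14, Eif2s2, Dmtn and Fn1 had a Pol II promoter peak in WT mESCs, and Nod1, Ntn1 and Rbfox3 had none.

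**Figure D3:**
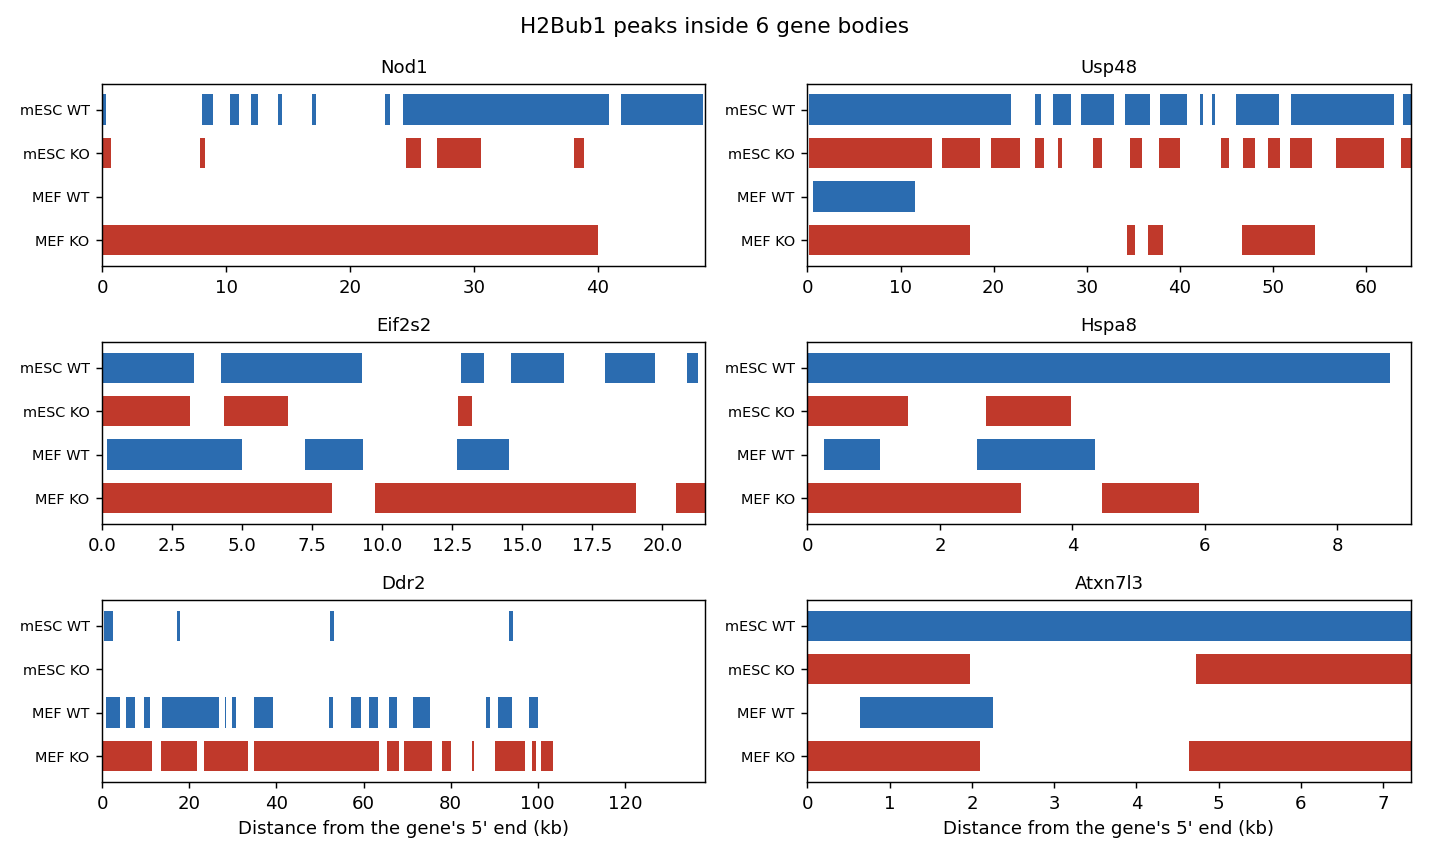
H2Bub1 peaks (bars) inside 6 gene bodies against the distance from the 5′ end (kb), in WT (blue) and KO (red) mESCs and MEFs, 1 library per row. The KO mESC peaks of Eif2s2 and Hspa8 end at 13189 bp and 3982 bp, nearer to the 5′ end than the WT ones (21251 bp and 8801 bp), Ddr2 has no KO mESC peak but wide MEF peaks, and both KO libraries have a gap in Atxn7l3.

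Among 28 gene lists, the replication-dependent histone genes stood at one end. All 9 that could be compared were in the set, against 15.9% of all genes compared, and their median loss was 100% of the WT bases, against 26.8% over the set. Among genes with at least 75% of the body in WT peaks, 6 of 6 histone genes (54.1 to 100) and 26.1% of all genes were in it. The lists were chosen with earlier results of these data known. Hist1h1c, a linker histone, had its whole 1560 bp inside a WT peak and 0 bp in KO. Hist1h3d went from 1073 bp to 0 bp, Hist2h4 from 1336 bp to 0 bp, and Hist1h2ac and Hist1h2bc, which share a promoter peak of Pol II, from 1689 bp and 1776 bp to 0 bp. Hist2h2be went from 2620 bp to 1034 bp, Hist3h2a from 2146 bp to 1238 bp, Hist1h4d from 1049 bp to 742 bp and Hist2h3c1 from 1277 bp to 1132 bp. These genes were lost or shortened in the H2Bub1 list while a Pol II peak remained at each promoter. The Pol II fold of the 9 genes had a median of 17.7 (11.1 to 44.9) in WT and 16.4 (6.42 to 22.9) in KO. It was lower in KO at each, and 70.7% of all 1381 genes of the class of highest folds with a KO peak also had a lower fold in KO. Most histone genes are too short for the limit of 1000 bp. Over all 67 autosomal genes of the list, 39 had at least 1 base inside a WT mESC peak, and of these 37 had fewer in KO, 2 had equal numbers and 0 had more, while over all autosomal genes with a WT base 17.6% had fewer. Of the 39 genes, 30 had no base left in KO. The genes lie in clusters and share peaks, so they are not independent of each other.

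**Figure D4:**
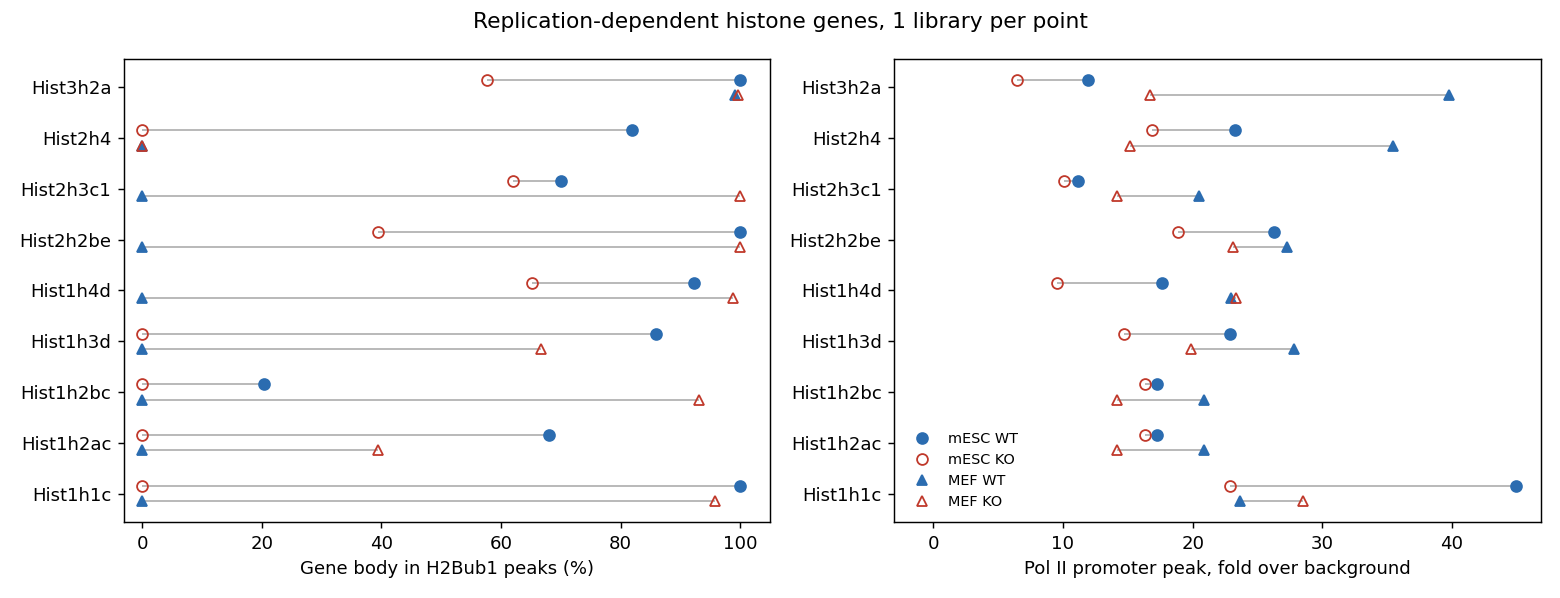
Share of the gene body inside H2Bub1 peaks (%, left) and fold of the Pol II promoter peak over its own background (right) for the 9 replication-dependent histone genes compared, with 1 library per point (circles mESCs, triangles MEFs, filled WT, open KO). H2Bub1 cover is lower in KO mESCs at all 9 and higher in KO MEFs at 8.

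Genes for cytosolic ribosomal proteins had smaller losses. Of 73 cytosolic ribosomal protein genes, 26 were in the set (35.6%, against 15.9% of all genes), and their median loss was 10.3% of the WT bases. Their bodies were widely covered in both genotypes, with a median of 93.6% (55.0 to 100) in WT and 84.6% (51.0 to 99.3) in KO. Among genes with at least 75% of the body in WT peaks, 22 of 64 ribosomal protein genes (34.4%, 23.0 to 47.3) and 26.1% of all genes lost bases, so at like cover the list could not be told from all genes. Rpl4 went from 5292 bp to 3885 bp, Rpl27a from 3221 bp to 2312 bp and Rps24 from 6561 bp to 5261 bp. Of the 26 genes 24 had a Pol II promoter peak in WT mESCs, with a median fold of 8.01 in WT and 8.36 in KO over the 26 genes. None of the 26 lost 50% or more of its bases. The set held 2 of 51 mitochondrial ribosomal protein genes (Mrpl27 and Mrpl11, 3.92%) and 0 of 29 proteasome genes. Of 63 splicing factor and hnRNP genes 15 were in it (23.8%), among them Hnrnpd (7716 bp and 5539 bp) and Sf3a3 (4408 bp and 2085 bp), and of 16 glycolysis genes 6 were (37.5%), among them Pkm (23008 bp and 20259 bp), Eno1 (12159 bp and 10868 bp) and Aldoc (2841 bp and 1545 bp). Of 55 chaperone genes 8 were (14.5%), a share near that of all genes. Hspa8, the constitutive HSP70, lost the most of them, from 8801 bp to 2811 bp, and its KO peaks ended 3982 bp from the 5′ end.

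**Figure D5:**
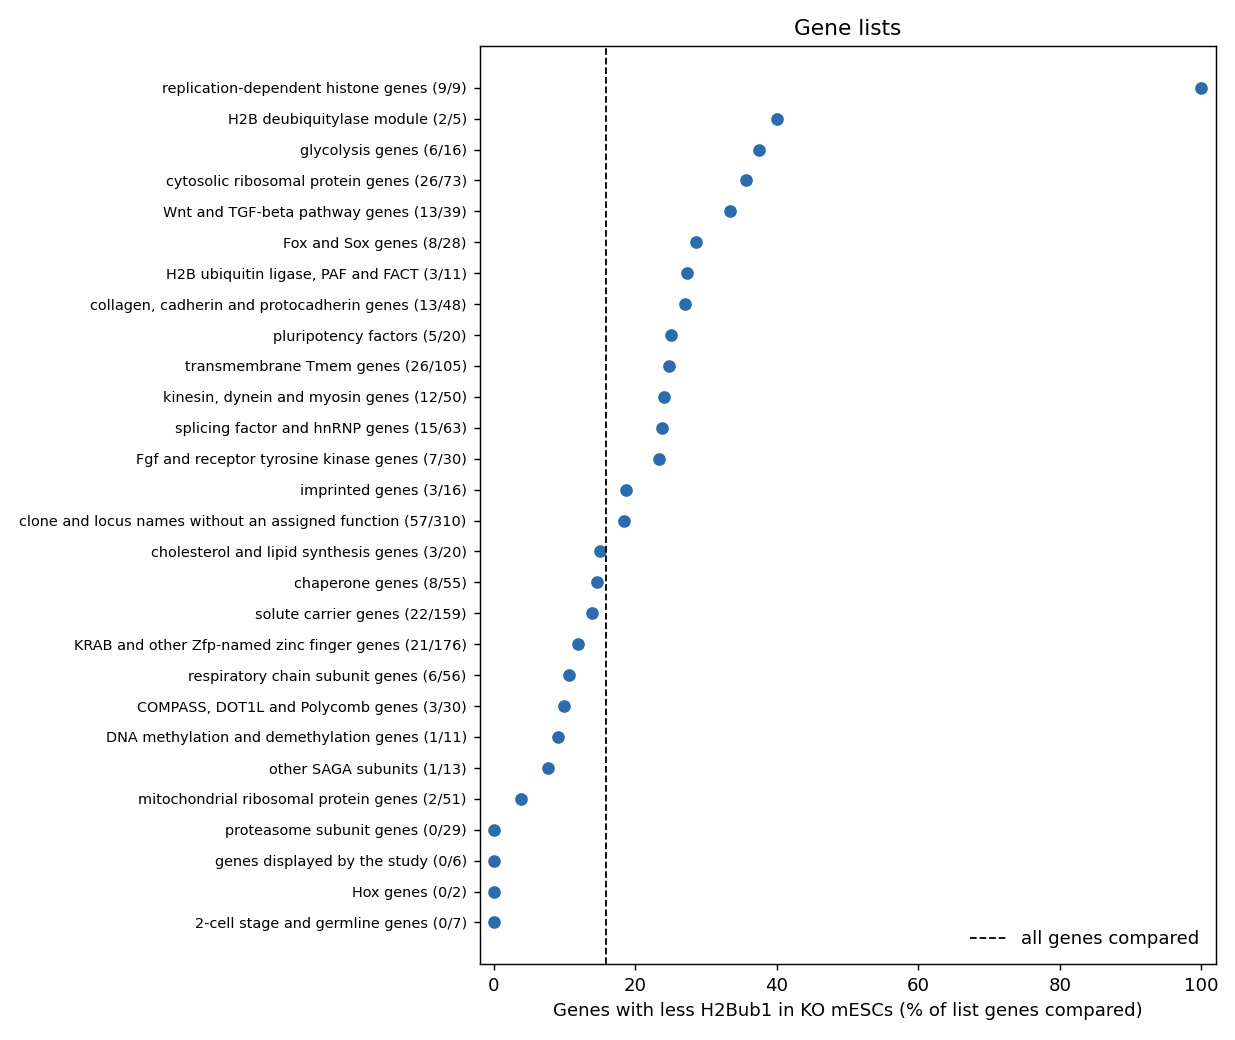
Share of the genes compared in each of 28 gene lists that had less H2Bub1 in KO mESCs (%, points; in brackets, genes with less and genes compared). The dashed line is the 15.9% of all genes; the histone list lies at 100% and the proteasome list at 0%.

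Of 20 pluripotency factors 5 were in the set (25%), with losses of 1.77% to 8.13% of the WT bases. They were Tdgf1, a co-receptor of Nodal (5496 bp and 5049 bp), Tbx3 (14056 bp and 13735 bp), Klf5 (12404 bp and 12177 bp), Dppa2 (4766 bp and 4574 bp) and Klf4 (4516 bp and 4436 bp). The Pol II fold of Tbx3 was 5.98 in WT and 11.6 in KO, that of Klf4 7.05 and 11.8, and that of Tdgf1 7.37 and 2.81. The remaining lists held few genes each, and their counts are given beside the 15.9% of all genes without reading a difference from them. The set held 3 of 30 COMPASS, DOT1L and Polycomb genes (10%), with Phc1 losing the most (12543 bp and 8498 bp), 1 of 11 DNA methylation genes (Uhrf1, 20166 bp and 16983 bp), 1 of 13 other SAGA genes (Sf3b3, 23398 bp and 20758 bp), 3 of 20 cholesterol and lipid synthesis genes and 3 of 16 imprinted genes, such as the cell cycle inhibitor Cdkn1c (1465 bp and 398 bp). It held 0 of 7 genes of the 2-cell stage and germline, 0 of 2 Hox genes and 0 of the 6 genes displayed by the study.

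Of 39 Wnt and TGF-beta pathway genes 13 were in the set (33.3%, 19.1 to 50.2, against 15.9% of all genes). Of these 13, 4 had a Pol II promoter peak in WT mESCs, against 50.9% of the set. No base was left in KO at 4 of them, against 13.8% of the set. The Wnt ligands Wnt9b and Wnt11 went from 3346 bp and 3291 bp to 0 bp, and the endothelial receptor Acvrl1 from 1552 bp to 0 bp. Of 48 collagen, cadherin and protocadherin genes 13 were in the set (27.1%), such as Cdh3 (8887 bp and 4824 bp), Cdh2 (2432 bp and 272 bp), and the collagen VI gene Col6a1 (2514 bp and 0 bp). Of 28 Fox and Sox genes 8 were (28.6%), such as Foxn4 (4183 bp and 655 bp) and Sox11 (2020 bp and 857 bp). Of 30 Fgf and receptor tyrosine kinase genes 7 were (23.3%), such as Pdgfb (5946 bp and 3957 bp) and Fgf10 (1543 bp and 0 bp). Of 50 kinesin, dynein and myosin genes 12 were (24%), and of 105 Tmem genes 26 (24.8%, 16.9 to 34.1). The intervals of the collagen and cadherin, Fox and Sox, Fgf and kinesin lists, and those of the splicing factor and glycolysis lists, all held the 15.9% of all genes, so no difference from all genes is read from these 6 shares. Those of the Wnt and TGF-beta list and of the Tmem list began above 15.9%. Among 28 lists chosen with earlier results of these data known, no difference is read from them either. Solute carriers (22 of 159), respiratory chain subunits (6 of 56) and Zfp-named zinc finger genes (21 of 176) had shares of 13.8%, 10.7% and 11.9%, and genes known only by clone or locus names 18.4% (57 of 310), all near the 15.9% of all genes.

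The 195 genes that lost every covered base had little of their body inside WT peaks. Their median WT cover was 12.4% (9.61 to 14.7) of the gene body. The most WT bases were at Glp1r, the GLP-1 receptor, with 6437 bp. It was followed by Ddr2, a collagen receptor (4598 bp), Tmem132e (3848 bp), the chemokine Cx3cl1 (3738 bp), Wnt9b, Zfp985 (3312 bp), Wnt11, Prcd (3214 bp), Adam33 (3154 bp) and the homeobox gene Obox6 (3120 bp). Glp1r (fold 2.85) and Cx3cl1 (3.77) had a Pol II promoter peak in WT mESCs, and no gene of these 10 had one in KO mESCs. A KO peak lay within 5000 bp of the gene body at 75 of the 195 genes, and the median distance to the nearest KO peak was 7225 bp.

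Some of the genes were neighbours. Counted along the chromosomes over all protein-coding genes, 996 of the 1417 had no adjacent gene in the set, and the others formed 159 pairs, 26 runs of 3, 5 runs of 4 and 1 run of 5. The run of 5 lay on chromosome 9 between 58156268 and 58313186 (mm10) and held Islr, Islr2, Pml, Stoml1 and Loxl1. Islr (2873 bp and 825 bp) and Islr2 (2873 bp and 838 bp) overlap and share their peaks. Pml, the core protein of PML nuclear bodies, had 24948 bp and 23502 bp, Stoml1 had 8404 bp and 7485 bp, and Loxl1, an elastin crosslinking enzyme, had 5316 bp and 4882 bp. Another run held Ncl, Nmur1, Tex44 and Ptma on chromosome 1. In all, 107 of the genes overlapped another gene of the set. Runs and overlaps were not counted for the other genes compared, so no clustering is read from these counts. Over the 3048 genes at least 5000 bp from any other, 431 (14.1%) lost bases.

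The direction was not shared by MEFs. Of the 1417 genes, 887 (62.6%, 60.0 to 65.1) had more H2Bub1 covered bases in KO than in WT MEFs, 15 had fewer and 512 (36.1%, 33.6 to 38.7) had none in either MEF library. Among the other genes 90.2% (89.5 to 90.8) had more and 8.94% (8.30 to 9.61) had none in either, and over all genes compared 85.8% had more. The median cover of the set in MEFs was 0% in WT and 17.8% in KO. Among genes with at least 1000 bp in WT MEF peaks, 10 of 419 genes of the set (2.39%, 1.15 to 4.35) and 31 of 4189 others (0.74%, 0.50 to 1.05) had fewer in KO MEFs, which came to 0.89% of the genes compared. With peaks of −log10 q of at least 3 these were 0 of 118 and 5 of 593, so the higher share of the set was not present there. Of the 10 genes, Col6a3 (from 2850 bp to 411 bp), Dync1h1 (23110 bp and 21007 bp), the interferon regulator Irf7 (1698 bp and 0 bp), Gpc1 (3300 bp and 1771 bp) and Cspg4 (1013 bp and 0 bp) lost the most. The promoters of Col6a3 and Cspg4 held Pol II peaks in WT MEFs (folds of 13.9 and 5.52) and none in KO MEFs, and that of Irf7 was 21.4 in WT and 6.44 in KO.

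The response in MEFs went with Pol II class. Of the 248 genes in the class of highest mESC Pol II folds, 92.7% had more H2Bub1 in KO MEFs, against 94.96% of the other genes of that class. Of the 696 without a Pol II promoter peak in WT mESCs, 43.8% did, against 83.4% of the others, and 54.7% had no H2Bub1 in either MEF library, against 15.8% of the others. Of the 9 histone genes, 8 had more covered bases in KO MEFs, and the other, Hist2h4, had 0 bp in both. Hist1h1c went from 0 bp to 1495 bp and Hist2h2be from 0 bp to 2620 bp. Of all 67 histone genes, 34 had more in KO MEFs and 0 had fewer. Of the 26 ribosomal protein genes 25 had more in KO MEFs and 1 (Rps6) had equal numbers. In MEFs, Nod1 went from 0 bp to 39949 bp and Ddr2 from 42531 bp to 80538 bp. The MEF lists also differed in length, with 19725 H2Bub1 peaks in WT and 28856 in KO, and the cell types differ in origin and culture, so their parts in the opposite directions cannot be told apart.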

How the data were processed

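The 4 H2Bub1 and 4 Pol II peak lists were used, 1 library per group. Other samples of the series were not analysed here. The submitters' processing notes name bcl2fastq 2.17.1.14, Bowtie 1.0.0, MACS2 2.1.1.20160309 and mm10. The authors called broad peaks for H2Bub1 and narrow peaks for Pol II in each library. The deposited fold is a ratio of a peak over local background, and the authors also give its −log10 p and −log10 q. The deposited narrow lists also hold a summit offset, which was not used. Read depth is unknown, and a deeper library gives more and wider peaks.

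Overlapping peaks of a list were merged and their bases counted in each of the 21938 protein-coding gene bodies of GENCODE M21, the genes on autosomes being compared. The members and gene lists were chosen with earlier results of these data known. Named are the targeted gene, its partners and the ligase genes, the 10 largest losses, the 10 genes with most WT bases and none in KO, the 5 highest Pol II folds with a WT peak only, the 5 largest losses in MEFs, the longest run, up to 3 genes per list and 2 genes on each side of a limit. Not every gene so selected appears in the text. Other genes named (further histone, pluripotency and neighbouring genes) complete a list or a run. Shares have exact Clopper-Pearson and medians exact binomial 95% intervals. No test was made, since no group has replicates. The counting was tested on simulated peaks. Python 3.11.15, numpy 2.4.6, pandas 2.3.3, scipy 1.17.1 and matplotlib 3.10.9 were used. The alternatives were equally long lists for each WT and KO pair (by −log10 p), a −log10 q of at least 3, peaks under 1000 bp apart joined, a minimum of 2000 bp, a loss of at least 50%, genes 5000 bp from any other, chromosome X, and for Pol II no KO peak within 5000 bp.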

Additional observations from a re-analysis of the deposited data

Results flagged for a closer look

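These results went in opposite directions in the 2 cell types, with fewer H2Bub1 covered bases in KO mESCs and more in KO MEFs. With 1 library per group, the differences between the cell types were not tested. Among the 10 largest losses in mESCs, the KO minus WT difference in MEFs was 39949 bp at Nod1, 16606 bp at Usp48, 8127 bp at Vac14, 9814 bp at Eif2s2 and 8424 bp at Fn1, whereas Ntn1, Rbfox3 and Dmtn had 0 bp in both MEF libraries and Dync1h1 had fewer bases in KO MEFs too. Among the 10 genes with most WT bases and none in KO mESCs, it was 38007 bp at Ddr2 and 1303 bp at Wnt11, and the other 8 had 0 bp in both MEF libraries. Summed over the 9 histone genes, H2Bub1 covered 14526 bp in mESCs of the WT and 4146 bp in those of the KO, and in MEFs the difference was 16990 bp in favour of KO (2128 bp in WT and 19118 bp in KO). Summed over the 26 ribosomal protein genes, the covered bases were 90537 (WT) and 80959 (KO) in mESCs, and the MEF difference was 24221 bp (69381 bp in WT and 93602 bp in KO).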

How the results depend on the processing

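Of the results recomputed under each alternative, 49 values stayed within 1.5 times the main count or within its 95% interval, and 29 did not. The values for histone genes, ribosomal protein genes and Pol II classes were added after seeing the data. Set against the other genes, the order turned at −log10 q of at least 3 for the Pol II promoter peak (50.9% and 65.0%, then 81.2% and 80.2%) and for fewer bases in KO MEFs (2.39% and 0.74%, then 0% and 0.84%). With at least 50% of the bases lost, the shares at the highest Pol II folds and among ribosomal protein genes turned from above the share of all genes to below it (4.95%). In the main setting the interval at the highest folds held the share of all genes. With −log10 q of at least 3, the set held 451 of 3514 genes (12.8%), 304 of them shared with the 1417, with 47 left without a KO base, a median GC content of 47.4% (others 45.8%), a Pol II promoter peak in WT at 81.2% (others 80.2%) and in WT only at 11.3%, fewer bases in KO MEFs at 0%, and shares of 12.3% without a Pol II promoter peak and 21.3% at the highest folds. With equal numbers of peaks, 304 genes had no KO base, the median length was 16865 bp (others 26872 bp), the Pol II promoter peak in WT was present at 42.9% and in WT only at 9.42%, and the share without a Pol II promoter peak was 23.3%. With at least 2000 bp in WT, 42 genes had no KO base, 60.3% had a Pol II promoter peak and the share without one was 16.9%. With at least 50% of the bases lost, 441 genes remained, with a median length of 17623 bp, a Pol II promoter peak at 24.3%, and shares of 10.1% without a Pol II promoter peak, 1.501% at the highest folds and 0% of the ribosomal protein genes, while 6 of 9 histone genes stayed. Over genes at least 5000 bp from another, 431 were in the set, 80 with no KO base, with a median length of 20823 bp (others 41173 bp), 48.7% GC (others 45.6%), a Pol II promoter peak at 47.6% and in WT only at 11.4%, and 60.0% of 15 ribosomal protein genes. Every histone gene that could be compared was in the set under the other alternatives, but these genes were few. They were 5 with −log10 q of at least 3, 2 with at least 2000 bp in WT and 1 at least 5000 bp from another gene. The remaining alternatives compared 9 histone genes each. The fewer genes that a stricter rule leaves set the lower counts, and the cause of the other shifts was not tested. No paired analysis was possible because each group is 1 library. The unknown read depth limits every count, and no value here has a replicate.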
